A study of Mus musculus with 48 samples.

Results

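The comparison described here is between Ba/F3 clones with heterozygous loss of Rpl11 (Rpl11+/-) and wild-type (WT) Ba/F3 clones. Its members were taken by genotype label alone: 12 of the 48 libraries of the series, from 6 of 24 clones and 2 of 8 genotypes. Ba/F3 is a mouse blood progenitor line that grows only with interleukin 3, and the mutant lines are CRISPR-Cas9 clones of it. WT was represented by clones 1, 2 and 3 and Rpl11+/- by clones 22, 406 and 414, and each clone gave 1 RNA-seq library and 1 library of ribosome footprints from the same divided lysate. All cells were grown in 10% serum with 1 ng/ml interleukin 3 and received 0.1 mg/ml cycloheximide for 1 min before harvest. Rpl5+/- (clones 68, 76 and 80) and Rpl22+/- (clones 13, 16 and 60), which lose 1 copy of another large-subunit protein gene, serve below as the most similar genotypes. Each replicate is a clone, so that whatever differs between clones of a genotype beside the edit is part of the spread. The Rpl11 edit itself is not given in the sources used here.

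Rpl11 is a protein of the large ribosomal subunit. Together with Rpl5 and 5S ribosomal RNA it forms a small particle that is built into the large subunit late in its assembly. When assembly is disturbed, the free particle can bind Mdm2, the ubiquitin ligase that keeps p53 low, and loss of 1 copy of RPL11 or RPL5 is a known cause of Diamond-Blackfan anaemia, in which red cell precursors fail. Ribosomal protein mRNAs start with a run of pyrimidines (the TOP motif), through which growth signals control their translation.

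The RNA libraries held 25317713 to 27470910 estimated counts in WT and 27100037 to 28133716 in Rpl11+/-, and the footprint libraries 46806204 to 71443928 and 44067135 to 49141769. Levels are given in CPM, counts relative to the library size after scaling by trimmed means of M values, and a change is a log2 ratio with its standard error (SE) from edgeR's quasi-likelihood test, adjusted by the Benjamini-Hochberg method over all genes tested (threshold 0.05). The Rpl11+/- clones differed more among themselves than the WT clones. The median standard deviation (SD) per gene on the log2 scale was 0.147 in Rpl11+/- RNA and 0.0799 in WT RNA, and 0.241 and 0.187 in footprints. Clone 22 lay farthest from the mean of the WT clones, with 192 genes over 2-fold away in RNA against 77 in clone 406 and 34 in clone 414. WT clones 1, 2 and 3 had 50, 33 and 31 such genes, each against the mean of the other WT clones. Clone 414 was thus within the WT range by this count. No 2 libraries of a genotype agreed within counting noise. Ba/F3 is commonly described as a pro-B cell line, but most of the defining markers of that stage were absent. Of 19 pro-B genes 10 were at 0 in all 6 RNA libraries (among them Igll1, Ebf1, Dntt, Rag1, Rag2 and Il7r), 17 stayed under 1 CPM, and only Ptprc exceeded 10 CPM in all 6. Summed mast cell and basophil markers lay at 706 to 750 CPM in WT and 842 to 956 in Rpl11+/-, and summed erythroid markers at 1993 to 2112 and 2198 to 2365. In these bulk samples, fewer cells of a type and less RNA per cell cannot be told apart.

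Rpl11 itself (ENSMUSG00000059291, chr4:136049354-136053393 in GRCm38) was lower in every Rpl11+/- clone. Its RNA stood at 1665, 1670 and 1686 CPM in WT clones 1, 2 and 3 and at 1063, 1150 and 1008 CPM in Rpl11+/- clones 22, 406 and 414, an order of clones kept in all sentences below. The groups did not overlap, as in 16.4% of all genes in the downward direction, and the mean was 64.2% of WT (1074 ± 71.4 against 1674 ± 10.9 CPM, SD, n = 3 each; log2 change -0.64, SE 0.05, edgeR adjusted p 8.15e-07). Footprints on Rpl11 stood at 1023, 1162 and 1038 CPM in WT and at 826, 842 and 665 CPM in Rpl11+/-. These groups did not overlap either, as in 8.93% of all genes in the downward direction, at 72.3% of WT, but the difference missed the threshold after adjustment (log2 change -0.47, SE 0.13, edgeR adjusted p 0.173). Rpl5, the partner of Rpl11 in the 5S particle, changed the other way in RNA, from 2283, 2338 and 2327 CPM in WT to 2728, 2710 and 2833 in Rpl11+/- (log2 change 0.25, SE 0.05, edgeR adjusted p 0.00368). Rpl5 footprints overlapped between the groups (558, 529 and 489 CPM against 566, 667 and 498, edgeR adjusted p 0.827). Of 10 tested genes of 5S particle assembly and its link to p53, 2 passed as higher (5.73% of all genes did) and 0 as lower. These were Rpl5, which is also a ribosomal protein gene, and Rrs1, an assembly factor that loads the particle.

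Over the whole transcriptome, 1509 of 12814 genes tested passed the threshold in RNA (11.8%), 734 of them higher in Rpl11+/- (5.73%) and 775 lower (6.05%). Most of these changes were small: 149 reached 2-fold, 119 higher and 30 lower. In footprints 12 of 16217 genes passed (0.074%), 10 higher (0.0617%) and 2 lower (0.0123%), while 1601 had an unadjusted p under 0.05. Both counts rose without clone 414 and fell without any other clone. Leaving out a library also leaves fewer replicates, and the part of that in these counts was not tested. The RNA count was 598 without clone 22, 813 without clone 406 and 2184 without clone 414, and 880, 796 and 665 without WT clones 1, 2 and 3, while the footprint count was 2, 7 and 186 without clones 22, 406 and 414 and 3 without any 1 of the WT clones.

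Ribosomal protein genes other than Rpl11 formed the most uniform group among the RNA changes. Of the 79 genes of both subunits, 65 passed the test as higher in Rpl11+/- RNA (5.73% of all genes did) and Rpl11 alone as lower. In the large subunit 38 of 47 were higher with a median log2 change of 0.32, and in the small subunit 27 of 32 with a median of 0.34, beside a median of 0.00 over all genes tested. For 75 of the 79 genes the 3 Rpl11+/- clones all lay above the 3 WT clones, as they did for 16.5% of all genes. Rplp0, the scaffold protein of the ribosomal stalk, stood at 5257, 5207 and 5328 CPM in WT and at 7693, 7025 and 6718 in Rpl11+/- (log2 change 0.44, edgeR adjusted p 0.0001). Rpsa, a small-subunit protein of the mRNA exit side, stood at 4288, 4097 and 4002 CPM and at 6125, 5632 and 5473 (log2 change 0.48, edgeR adjusted p 0.0001). In both genes the lowest Rpl11+/- clone, 414, exceeded the highest WT clone. Rpl23 (0.42), Rps24 (0.43), Rps7 (0.40) and Rpl18 (0.31) changed likewise on the log2 scale. Changes over the family ran from 0.01 for Rpl3, which sits near the peptidyl transferase centre, to 0.51 for Rps12. The members that did not pass were Rpl3, Rpl6, Rpl7, Rpl7a, Rpl10a, Rpl29, Rpl39, Rplp1, Rps15, Rps21, Rps27, Rps28 and Rps29. The count of 65 was 51 to 67 when 1 library was left out.

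Most ribosomal protein genes also share a pyrimidine run near the start of the transcript. In the RefSeq promoters of GRCm38.p6 (250 bases before to 50 after each start), 49 of the 58 ribosomal protein genes with an entry held at least 8 pyrimidines in a row within 50 bases of the start (84.5%), as did 39.3% of 27025 genes with an entry. Among other genes that rose in RNA the share was 33.5%. The lines show 30 bases on the coding strand, with the run in capitals, for Rpl11, its partner Rpl5, and 4 members whose RNA rose, of which Rpl34 and Rpl35a also passed the test in footprints.
Rpl11, chr4:136053357-136053386, minus strand: cggaagTCTCCCTCTCTCTTCCTgttctcc
Rpl5, chr5:107900498-107900527, plus strand: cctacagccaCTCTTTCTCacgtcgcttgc
Rpl34, chr3:130730330-130730359, minus strand: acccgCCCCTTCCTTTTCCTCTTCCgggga
Rpl35a, chr16:33056469-33056498, plus strand: ggggcttgCCTTCCTCTTTCCgccatcttg
Rps7, chr12:28635910-28635939, minus strand: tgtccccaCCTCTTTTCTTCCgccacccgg
Rps24, chr14:24490711-24490740, plus strand: agcggTCCTCTTTTCCTCCTCTCCagctcc
The run in Rpl11, whose RNA fell, is 17 bases long, and those in Rpl5 and Rpl34 are 9 and 20. In Rplp0, Rpsa and Rpl23, whose RNA also rose, the longest runs were 7, 7 and 6 bases, under the cut of 8. The runs of Rps24, Rpl5 and Rpl34 began at -37, -20 and -17 from the annotated start. A run counted here is thus not shown to be a TOP motif.

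Footprints on ribosomal protein mRNAs had a median change close to that of the RNA, with a wider spread between clones and few calls. The median log2 change was 0.26 for the large subunit and 0.34 for the small one, beside 0.02 over all genes. Of the 79 genes 2 passed the test, both as higher, beside 0.0617% of all genes called higher in footprints. Rpl34 footprints stood at 249, 250 and 277 CPM in WT and at 482, 391.6 and 321 in Rpl11+/- (log2 change 0.62, edgeR adjusted p 0.0328). Rpl35a footprints stood at 689, 624 and 697 CPM and at 1144, 1086 and 921 (log2 change 0.65, edgeR adjusted p 0.0374). In both, all Rpl11+/- clones exceeded all WT clones, and this held for 20 of the 79 genes, beside 7.91% of all genes at the footprint level. Rplp0 and Rpsa were not among them: Rplp0 footprints stood at 554, 530 and 620 CPM in WT and at 790, 547 and 475 in Rpl11+/-, and those of Rpsa at 711, 631 and 740 and at 882, 695 and 523. Clone 22 was the highest and clone 414 the lowest of all 6 for both. By clone, the median footprint difference from WT over the large-subunit genes was 0.43 in clone 22, 0.27 in clone 406 and 0.09 in clone 414, while in RNA the 3 values were 0.34, 0.30 and 0.29. Ribosomal protein genes share sequence with many processed pseudogenes, and how shared reads were assigned is not given in the sources used here. Rpl10, at 1884 to 2473 CPM in the RNA of the 6 clones, had 3.08 to 5.15 CPM of footprints, so that footprint levels of this family are uncertain.

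**Figure D1:**
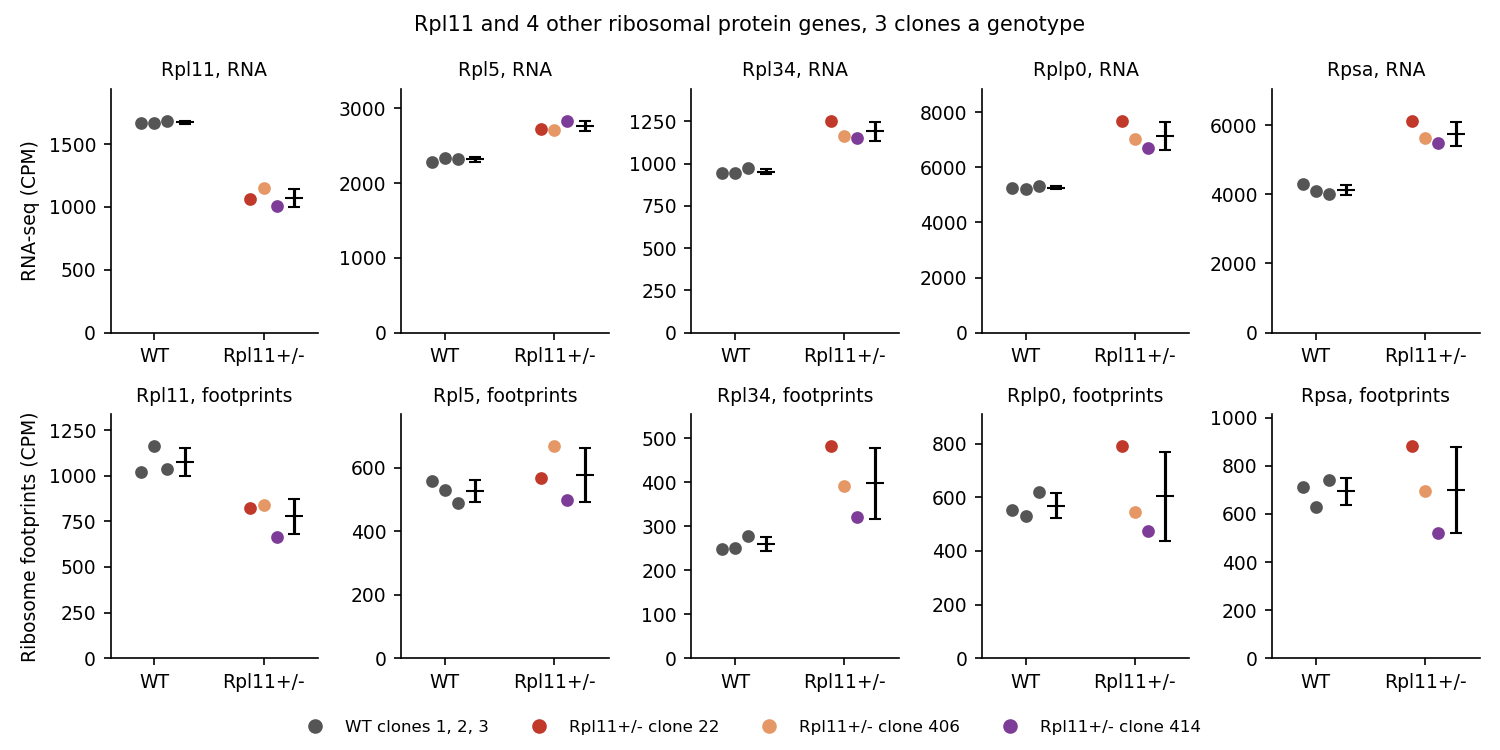
CPM of Rpl11, its partner Rpl5, Rpl34, Rplp0 and Rpsa in each clone, with RNA in the upper panels and footprints in the lower ones, and with bars for the mean and SD of 3 clones. Rpl11 RNA lies at 1008 to 1150 CPM in Rpl11+/- and 1665 to 1686 in WT, while RNA of the other 4 genes lies higher in every Rpl11+/- clone than in any WT clone and their footprints do so only for Rpl34.

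All ribosome assembly and translation factors that passed the test in RNA were higher. Of 116 ribosome biogenesis factors, 23 passed as higher in RNA and 0 as lower (23 of 116 beside 5.73% of all genes), with a median log2 change of 0.20. Polr1a, the largest subunit of RNA polymerase I, which transcribes ribosomal RNA, stood at 32.0, 30.9 and 29.5 CPM in WT and at 54.7, 53.2 and 42.5 in Rpl11+/- (log2 change 0.70, SE 0.12, edgeR adjusted p 0.000947). It was the only biogenesis factor of the list to pass in footprints as well, at 67.1, 62.8 and 62.3 CPM against 130.7, 117 and 94.2 (log2 change 0.83, edgeR adjusted p 0.0454). Clone 414 was the lowest of the Rpl11+/- clones at both levels and still above each WT clone. Rrs1 stood at 68.2, 64.3 and 64.1 CPM in WT RNA and at 110, 104 and 82.1 in Rpl11+/- (log2 change 0.59). Rrp12, an export factor of pre-ribosomes (0.62), the helicase Ddx21 (0.53), the pseudouridine synthase Dkc1 (0.55), the snoRNP protein Nop58 (0.51), Surf6 (0.48) and Ubtf, the activator of RNA polymerase I (0.34), also passed. The count of 23 changed when 1 library was left out. It was 5, 8 and 41 without clones 22, 406 and 414, and 12, 12 and 6 without WT clones 1, 2 and 3. Of 51 translation factors 11 were higher and 0 lower, among them the elongation factors Eef1b2 (0.44), Eef1g (0.22) and Eef1a1 (0.26) and the initiation factor subunit Eif3i (0.26). This count of 11 was 5 and 6 without clones 22 and 406, and 6, 6 and 4 without WT clones 1, 2 and 3.

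Dusp2, one of a set of growth-factor-induced genes, had the largest change among the footprint calls. Of 34 tested genes of the immediate early response and of feedback on MAP kinases, 7 passed as higher in RNA (5.73% of all genes did) and 3 as lower (6.05%), and in footprints 3 of 33 passed, all higher (0.0617%). Dusp2, a nuclear phosphatase that inactivates MAP kinases, stood at 10.5, 8.21 and 10.8 CPM in WT RNA and at 32.3, 26.3 and 22.4 in Rpl11+/- (log2 change 1.46, SE 0.18, edgeR adjusted p 0.0001). Its footprints stood at 5.28, 3.88 and 4.07 CPM in WT and at 30.8, 29.4 and 18 in Rpl11+/- (log2 change 2.56, SE 0.24, edgeR adjusted p 1.26e-05). Every Rpl11+/- clone lay far above every WT clone at both levels, and Dusp2 kept its call under all 11 RNA and 12 footprint alternatives tried. The footprint change beyond the RNA change was 1.09 on the log2 scale (SE 0.30) and missed the threshold (edgeR adjusted p 0.766).

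Csrnp1, a nuclear protein induced by cytokines, stood at 101, 94.2 and 91.9 CPM in WT RNA and at 180, 167 and 181 in Rpl11+/- (log2 change 0.88, edgeR adjusted p 0.00682). Its footprints stood at 38.6, 41.8 and 46.6 CPM and at 109, 95.9 and 93.2 (log2 change 1.23, SE 0.15, edgeR adjusted p 0.000737). The AP-1 subunit Jun stood at 35.4, 35.6 and 46.7 CPM in WT RNA and at 63.1, 54.6 and 56.6 in Rpl11+/- (log2 change 0.57, edgeR adjusted p 0.0463), and its footprints at 14.1, 13.9 and 21.0 CPM and at 53.6, 37.8 and 35.9 (log2 change 1.38, edgeR adjusted p 0.0149). For neither gene did the groups overlap. Other AP-1 subunits rose in RNA without a call in footprints. Fosb stood at 2.44, 1.56 and 1.85 CPM and at 9.70, 5.45 and 6.40 (log2 change 1.88, SE 0.29, edgeR adjusted p 0.00049), Fosl1 had a log2 change of 1.17 and Jund of 0.60. Fos had a log2 change of 0.16 (edgeR adjusted p 0.63) and Junb of 0.50 (edgeR adjusted p 0.0741), so that the family did not pass as a whole. Egr3, a zinc-finger factor of the same response, fell by 1.11 on the log2 scale at a low level (4.08, 3.66 and 3.20 CPM against 1.34, 2.17 and 1.56), and the MAP kinase inhibitors Spred1 and Spred2 fell by 0.23 and 0.26. The count of 7 was 5 or 6 with any 1 of the 6 libraries left out. The footprint count of 3 was 2, 3 and 5 without clones 22, 406 and 414, and 2, 2 and 3 without WT clones 1, 2 and 3. Csrnp1 kept its calls under all alternatives, whereas Jun lost its call in 6 of 11 RNA and 4 of 12 footprint alternatives.

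Among 23 genes of interleukin 3 and JAK-STAT5 signalling, 1 was higher and 1 lower, near the 5.73% and 6.05% of all genes. Mcl1, a survival protein of the Bcl2 family, had a log2 change of 0.36 in RNA. Socs1, the cytokine-induced inhibitor of JAK kinases, stood at 46.9, 52.0 and 52.5 CPM in WT RNA and at 10.8, 11.98 and 21.9 in Rpl11+/- (log2 change -1.76, SE 0.28, edgeR adjusted p 0.000962). The groups did not overlap, and the call held under all 11 alternatives. In footprints the Socs1 log2 change was -1.02 and missed the threshold (edgeR adjusted p 0.428).

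**Figure D2:**
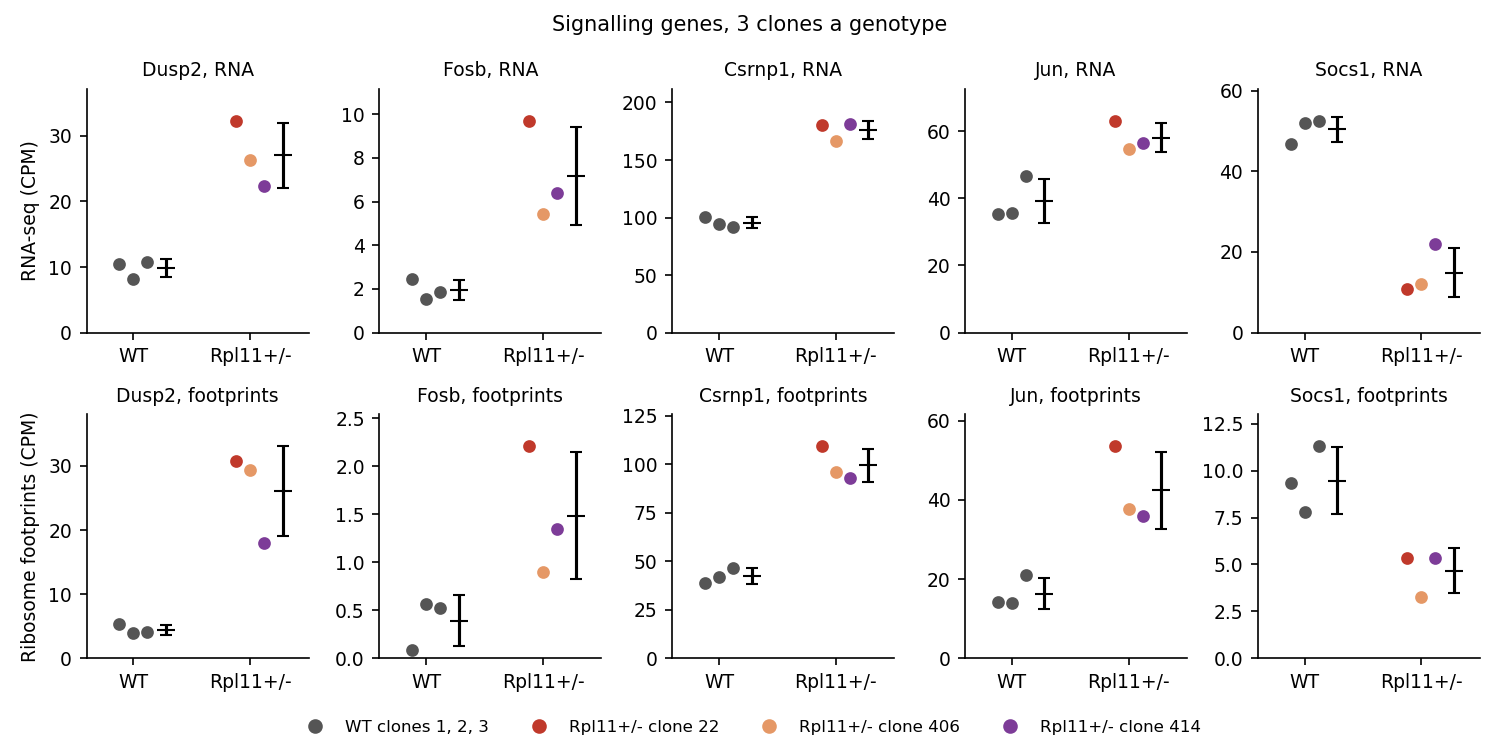
CPM of Dusp2, Fosb, Csrnp1, Jun and Socs1 in each clone, with RNA above, footprints below, and bars for the mean and SD of 3 clones. The Rpl11+/- clones lie above the WT clones in RNA for the first 4 genes and below them for Socs1, and Dusp2 footprints lie at 18 to 30.8 CPM in Rpl11+/- and 3.88 to 5.28 in WT.

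The largest RNA changes were in genes of low expression, and most of them differed strongly between the Rpl11+/- clones. Col1a1, a fibrillar collagen chain, stood at 0.137, 0.213 and 0.0377 CPM in WT and at 8.62, 2.598 and 6.07 in Rpl11+/- (log2 change 5.41, SE 1.64, edgeR adjusted p 0.0409). Ablim1, an actin-binding protein, stood at 5.49, 12.9 and 5.2 CPM and at 148, 37.1 and 24.4 (log2 change 3.15, edgeR adjusted p 0.0119). Rhag, the Rh-associated glycoprotein of red cells, stood at 3.64, 4.19 and 4.64 CPM and at 51.0, 11.1 and 5.96 (log2 change 2.45, edgeR adjusted p 0.0499). Clone 22 was the highest for all 3 genes, and the calls of Col1a1, Ablim1 and Rhag were lost in 7, 4 and 8 of 11 alternatives. Il12rb2, an interleukin 12 receptor chain (2.42), the protease Ctss (1.85), the adaptor Grap2 (1.79), the smooth muscle actin Acta2 (1.42), Rnf225 (1.39) and the integrin Itgb3 (1.38) also rose on the log2 scale, with calls lost in 6, 4, 6, 6, 3 and 5 of the 11 alternatives in that order. Zfp296, a zinc-finger protein, had closer replicates, at 4.25, 3.59 and 4.48 CPM in WT and 14.4, 10.7 and 8.49 in Rpl11+/- (log2 change 1.45, edgeR adjusted p 1.85e-05), and its call was kept throughout.

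In the other direction, Tns4, a focal adhesion protein, stood at 30.7, 37.6 and 5.09 CPM in WT and at 0.361, 1.08 and 0.559 in Rpl11+/- (log2 change -5.19, SE 1.38, edgeR adjusted p 0.0231). WT clone 3 was closer to the Rpl11+/- clones than to the other WT clones, and the call was lost in 6 of 11 alternatives. Il16, a T cell chemoattractant, stood at 28.99, 29.8 and 32.7 CPM and at 5.30, 7.36 and 16.9 (log2 change -1.63, edgeR adjusted p 0.00531). G2e3, a ubiquitin ligase, stood at 58.8, 57.2 and 63.6 CPM and at 25.4, 24.4 and 33.7 (log2 change -1.10, SE 0.12, edgeR adjusted p 1.85e-05). All Rpl11+/- clones lay below all WT clones for both genes. Ccng2, a cyclin of quiescent cells (-1.20), the melanocortin receptor Mc5r (-1.15), Slc35a5 (-1.14), the insulin receptor substrate Irs2 (-1.07) and the zinc-finger proteins Zfp54 (-1.11), Zfp763 (-1.08) and Zfp87 (-1.05) made up the rest of the largest decreases on the log2 scale. Slc35a5, Zfp54, G2e3, Zfp763 and Zfp87 kept their calls under all 11 alternatives, while Ccng2 and Irs2 lost their calls in 6 each and Mc5r in 3.

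Part of the targets of ATF4, the transcription factor of the integrated stress response, fell in RNA. ATF4 drives genes of amino acid import, amino acid synthesis and transfer RNA charging. Of 34 tested genes, 13 passed as lower (6.05% of all genes did) and 1 as higher, with a median log2 change of -0.49. Slc38a2, a neutral amino acid importer, stood at 239, 242 and 260 CPM in WT and at 164, 142 and 184 in Rpl11+/- (log2 change -0.60, edgeR adjusted p 0.000157). Cebpg, a partner of ATF4 on DNA, stood at 97.5, 95.3 and 100.3 CPM and at 53.2, 57.4 and 78.1 (log2 change -0.64). The groups did not overlap in either gene. Ddit4, an inhibitor of mTORC1, stood at 67.0, 64.6 and 78.9 CPM and at 29.6, 33.8 and 36.3 (log2 change -1.08, edgeR adjusted p 0.00122), and Sesn2, a leucine sensor upstream of mTORC1, at 88.2, 85.3 and 89.2 and at 43.1, 61.1 and 69.2 (log2 change -0.60). Asparagine synthetase, Asns, fell with a steep order between clones, from 298, 308 and 301 CPM in WT to 76.9, 141 and 274 in Rpl11+/- (log2 change -0.88, edgeR adjusted p 0.0453). The tRNA synthetases Cars (-0.73), Nars (-0.57), Gars (-0.52), Mars1 (-0.46) and Aars (-0.41), the proline synthesis enzyme Pycr1 (-0.58), the amino acid transporter chain Slc3a2 (-0.39) and Herpud1 (-0.32) completed the 13. Ppp1r15a, the phosphatase subunit that ends the response, was the 1 higher gene (0.72). Ddit3 (-0.89, edgeR adjusted p 0.0523), Nupr1 (-1.45, edgeR adjusted p 0.0939) and Trib3 (-0.88, edgeR adjusted p 0.0968) missed the threshold. Atf4 itself did not pass, at 418, 421 and 418 CPM in WT RNA and 435, 434 and 490 in Rpl11+/-.

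The size of the ATF4 shift followed the clone. The median log2 difference from WT over the list was -1.01 in clone 22, -0.53 in clone 406 and -0.03 in clone 414, and summed over the list the RNA stood at 4420, 5582 and 7692 CPM, beside 7675 to 7761 in WT. The sum in clone 414 was thus inside the WT range, although single members such as Slc38a2 and Ddit4 lay below every WT clone there. The count of 13 was 5, 5 and 28 without clones 22, 406 and 414, and 5, 7 and 6 without WT clones 1, 2 and 3, and it was 3 with only the genotypes compared. In footprints 0 of 36 genes passed, with medians of -0.78, -0.42 and -0.05 by clone. The C/EBP-ATF element (TGATGNAAT on either strand) occurred in the promoters of 4 of the 29 list members with an entry (13.8%), among them Gars and Pycr1, and in 1.08% of all promoters. The sequences of Gars and Pycr1, whose RNA fell, are shown with the element in capitals.
Gars, chr6:55037960-55037989, plus strand: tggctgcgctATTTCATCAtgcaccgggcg
Pycr1, chr11:120643832-120643861, minus strand: gccctgtgtaTGATGCAATgcacaaggctc

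**Figure D3:**
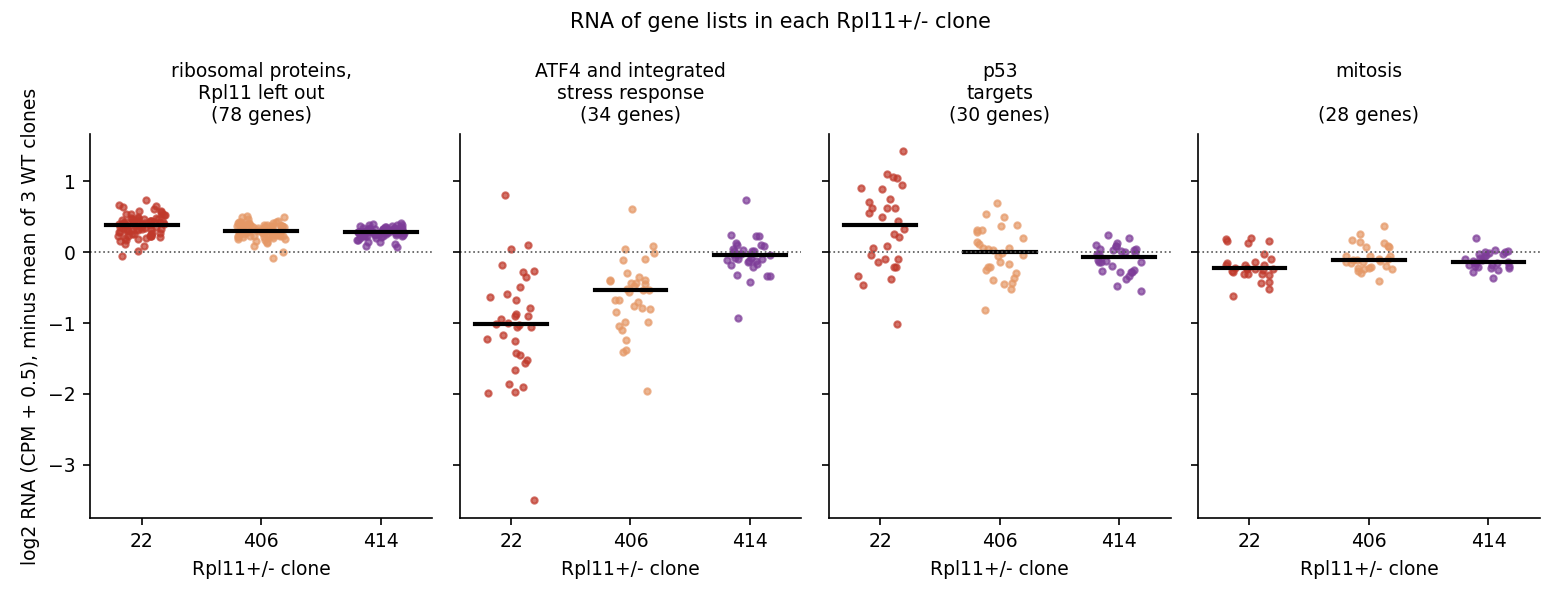
Difference of each list member from its WT mean in log2(CPM + 0.5), for Rpl11+/- clones 22, 406 and 414, with 1 point per gene and a black bar at the median; the lists are ribosomal proteins without Rpl11, ATF4 targets, p53 targets and mitosis genes. Ribosomal protein RNA is shifted alike in the 3 clones, whereas ATF4 targets have medians of -1.01, -0.53 and -0.03 and p53 targets of 0.39, 0.01 and -0.07.

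Targets of p53 passed in about the same share as all genes. Of 30 tested targets 2 passed as higher in RNA and 1 as lower, beside 5.73% and 6.05% of all genes, with a median log2 change of 0.09 that was -0.04 without clone 22. Tigar, a regulator of glycolysis, had a log2 change of 0.52 and the kinase Plk3 of 0.71, and Sesn2 was the lower one. Trp53, the gene of p53, stood at 106, 106 and 107 CPM in WT RNA and at 151, 134 and 114 in Rpl11+/-, which did not overlap but missed the threshold (log2 change 0.33, edgeR adjusted p 0.0564). Cdkn1a, the cell cycle inhibitor p21, stood at 280, 303 and 318 CPM in WT RNA and at 461, 292 and 308 in Rpl11+/- (log2 change 0.24, edgeR adjusted p 0.386). Mdm2 stood at 97.2, 97.5 and 93.7 CPM and at 131.3, 95.4 and 79.1 (log2 change 0.08, edgeR adjusted p 0.701). In both Cdkn1a and Mdm2 clone 22 was the highest of the 6 and the other Rpl11+/- clones lay among or below the WT clones. Ccng1 (209, 187 and 199 CPM against 411, 257 and 163) and Zmat3 (49.2, 43.9 and 52.3 against 105, 49.3 and 33.0), other p53 targets, were also highest in clone 22 and lowest in clone 414, and Ccng1 in clone 406 lay above the WT clones. In footprints Cdkn1a had a log2 change of 0.75 (edgeR adjusted p 0.164) and Trp53 of 0.45 (edgeR adjusted p 0.567). The median over the p53 list was 0.39 in clone 22, 0.01 in clone 406 and -0.07 in clone 414. Without clones 22, 406 and 414 the count of 2 became 0, 0 and 10, and it was 0 without any 1 of the WT clones.

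Some genes of mitosis were lower by small amounts. Of 28 tested, 6 passed as lower (6.05% of all genes did) and 0 as higher, with a median log2 change of -0.16. Ect2, the exchange factor that starts cytokinesis, stood at 114, 113 and 119 CPM in WT and at 75.3, 86.9 and 89.6 in Rpl11+/- (log2 change -0.46, edgeR adjusted p 0.000185). The kinetochore protein Nuf2 (-0.32), Incenp (-0.30), the proliferation marker Mki67 (-0.23), the motor Kif11 (-0.22) and the kinase Aurkb (-0.21) were the others. This count was 1 without clone 22, 2 and 3 without WT clones 1 and 3, and 3 with only the genotypes compared. Of 41 genes of DNA replication, 2 passed as lower, the helicase subunit Mcm7 (-0.29) and Gins3 (-0.52), a share under the 6.05% of all genes. Myc, the growth-promoting transcription factor, did not pass (log2 change -0.27, edgeR adjusted p 0.355).

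B2m, the constant chain of MHC class I, stood at 325, 350 and 391.9 CPM in WT RNA and at 682, 496 and 527 in Rpl11+/- (log2 change 0.67, edgeR adjusted p 0.00181), and its footprints at 746, 688 and 884 CPM and at 1987, 1203 and 1180 (log2 change 0.92, edgeR adjusted p 0.0328). The groups did not overlap at either level. Among 20 interferon response genes, 5 passed as higher (5.73% of all genes did) and 0 as lower: the peptide transporter Tap1 (42.6, 37.5 and 44.7 CPM against 84.9, 59.0 and 61.5, log2 change 0.72), the immunoproteasome subunits Psmb8 (0.37) and Psmb9 (0.52), Ifi35 (0.32) and Usp18 (1.49). The median over the list was 0.40 in clone 22, 0.26 in clone 406 and -0.04 in clone 414, and 0.21 in WT clone 3. Without clones 22 and 406 the count was 1 and 2, and without WT clones 1, 2 and 3 it was 1, 1 and 2.

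The counts of this paragraph stand beside 5.73% of all genes called higher and 6.05% called lower. Of 24 genes of cholesterol synthesis, Hmgcs1 (-0.53), Msmo1 (-0.45), Fdft1 (-0.45), Acat2 (-0.33) and Sc5d (-0.32) passed as lower and Insig1, which holds back the pathway, as higher (0.45). These 5 decreases were 3 without clone 414 and 0 without clone 22 or any 1 of the WT clones. Of 26 chaperone genes 4 passed as higher: Hspa8 (0.51), the endoplasmic reticulum chaperone Hspa5 (0.41), Dnaja1 (0.37) and Dnajb1 (0.34). Among 23 erythroid and haem genes, the GATA cofactor Zfpm1 (0.57), Lmo2 (0.46) and the haem enzyme Uros (0.42) were higher, whereas Gata1, the master factor of red cells, did not pass (-0.19, edgeR adjusted p 0.377). Of 4 tested megakaryocyte markers, Itga2b (0.43) and Itgb3 were higher, with calls lost in 6 and 5 of 11 alternatives. The summed markers of that list stood at 189 to 225 CPM in WT and 274 to 323 in Rpl11+/-. Most of this sum was Itga2b alone, at 181 to 214 and 255 to 304 CPM. Of the 7 genes listed 3 were at 0 in all 6 RNA libraries. The part of cell composition in the lists was not tested. No gene passed among 19 of glycolysis, 12 neutrophil and monocyte, 6 mast cell, 3 T cell and 3 pro-B genes tested. Of 80 nuclear genes of the respiratory chain 5 were higher, about the share of all genes, and this count was 0 to 3 when 1 library was left out (0, 1 and 2 without clones 22, 406 and 414; 0, 3 and 0 without WT clones 1, 2 and 3). Of 78 mitochondrial ribosomal proteins 4 were higher and 1 lower, and of 37 proteasome subunits only Psmc6 passed, as lower (-0.28).

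Genes called in RNA had footprint medians of the same sign and of similar size. Of 12074 genes tested at both levels, the 711 that were higher in RNA had a median log2 change of 0.40 in RNA and 0.38 in footprints, and the 770 that were lower had medians of -0.40 and -0.31. Over all 12074 genes both medians were 0.00. These medians are a description, since both assays used the same lysates, and 9 of the 1481 genes passed in footprints too. Beside the genes already named, the footprint calls held 4 with a standard symbol. The transcription factor Nfx1 stood at 76.1, 74.9 and 72.4 CPM in WT footprints and at 124, 126 and 92.7 in Rpl11+/- (log2 change 0.62, edgeR adjusted p 0.0328). Pnisr, a splicing-related protein, stood at 74.5, 71.9 and 56.2 CPM and at 121, 115 and 123 (log2 change 0.83, edgeR adjusted p 0.00902). The 2 lower ones were Ibtk, an inhibitor of Bruton's kinase, at 77.5, 83.4 and 71.7 CPM against 39.5, 41.9 and 52.5 (log2 change -0.80, edgeR adjusted p 0.0328), and the telomere protein Tinf2, at 20.3, 20.6 and 24.6 against 7.09, 11.1 and 11.96 (log2 change -1.12, edgeR adjusted p 0.0328). In RNA Nfx1 (0.34) and Tinf2 (-0.36) passed too, whereas Pnisr (0.52, edgeR adjusted p 0.0955) and Ibtk (-0.23, edgeR adjusted p 0.0814) did not. The last of the 12 was 2410002F23Rik (log2 change 1.38), which is outside the rule for named genes and is given to complete the count. Most of the footprint calls depended on the setting. Of 12 alternatives Nfx1, Tinf2, Ibtk, Polr1a, Rpl34 and Rpl35a lost theirs in 6 each, B2m in 5 and Pnisr in 3.

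**Figure D4:**
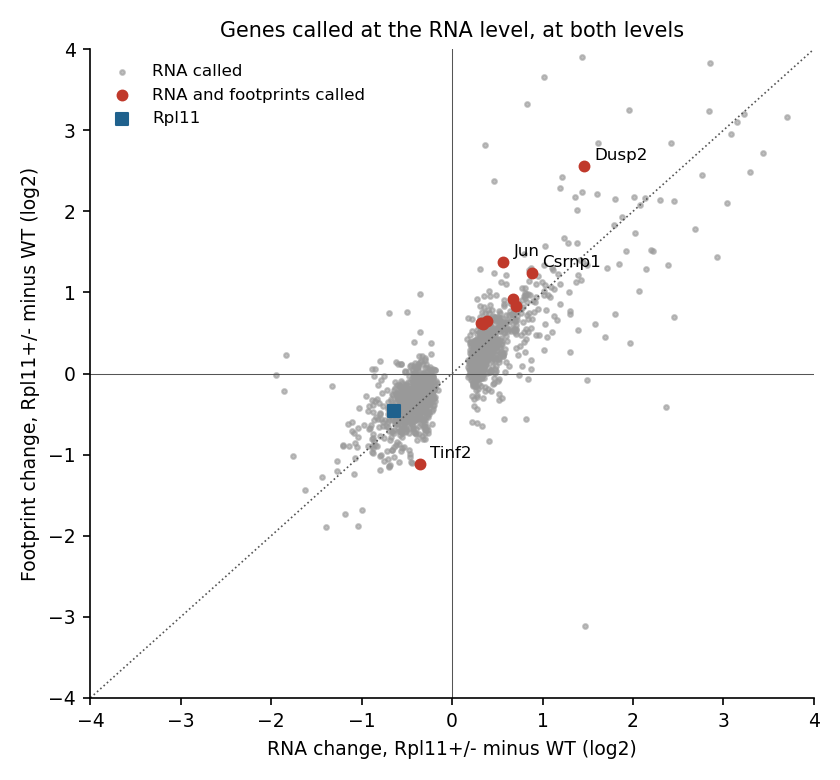
Log2 change in RNA (horizontal) against log2 change in footprints (vertical) for the 1481 genes called in RNA and tested at both levels, with the 9 also called in footprints in red and Rpl11 as a blue square; 19 genes lie outside the axes. The points follow the diagonal with a wider spread in the vertical direction, and Rpl11 lies at -0.64 and -0.47.

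No gene passed the test for a footprint change beyond its RNA change. Of 16568 genes 0 passed with edgeR (0%), the lowest adjusted p was 0.431, and 637 had an unadjusted p under 0.05, while DESeq2 called 42. Rpl11 had a difference of 0.16 (edgeR adjusted p 1). The genes with the lowest p in each direction are given as values. Phf20, a reader of histone methylation, stood at 32.6, 37.8 and 36.3 CPM in WT RNA and 29.9, 31.8 and 29.1 in Rpl11+/-, and its footprints at 40.5, 37.6 and 41.5 and at 51.7, 52.5 and 50.8 (difference 0.60, SE 0.14, edgeR adjusted p 0.431). RNA was thus lower and footprints higher in each Rpl11+/- clone. Tmem131 had RNA that was higher in each Rpl11+/- clone, with footprints that were lower in clones 22 and 406 and within the WT values in clone 414. Its RNA stood at 71.9, 69.5 and 78.1 CPM and 119, 92.9 and 84.6, and its footprints at 81.9, 83.9 and 82.4 and at 62.9, 67.9 and 82.2 (difference -0.66, SE 0.14, edgeR adjusted p 0.431). D16Ertd472e (0.52) and the decay helicase Ddx6 (0.45) were next among the positive differences, and Tmem183a (-1.02) and the deadenylase subunit Cnot3 (-0.44) among the negative ones. Rplp0 (-0.36) and Rpsa (-0.47), whose RNA rose without a footprint call, had an edgeR adjusted p of 1.

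Against Rpl5+/-, which lacks 1 copy of the partner in the 5S particle, few genes passed the test, although 1648 had an unadjusted p under 0.05 in RNA. Of 12814 genes 18 passed in RNA (0.14%), 8 higher in Rpl11+/- (0.0624%) and 10 lower (0.078%), and in footprints 2 of 16217 (0.0123%), 1 in each direction (0.00617%). The edited genes gave the clearest differences: the mean of Rpl11 RNA was 1074 CPM here and 1970 ± 97.8 CPM (SD, n = 3) in Rpl5+/-, and Rpl5 RNA was higher in Rpl11+/- by 0.83 on the log2 scale (edgeR adjusted p 1.2e-09 for each). Over the 76 ribosomal proteins without Rpl5, Rpl11 and Rpl22, 0 passed, the median log2 difference was 0.05, and single differences ran from -0.11 to 0.15. Both genotypes were compared with the same WT clones, and by clone the median over the large-subunit genes was 0.35, 0.25 and 0.22 in Rpl5+/- clones 68, 76 and 80, beside 0.34, 0.30 and 0.29 in Rpl11+/-. For the ATF4 list the Rpl5+/- medians were -0.10, -0.05 and -0.25, and 1 of 34 genes, Slc38a2, was lower in Rpl11+/- than in Rpl5+/- (log2 difference -0.48, edgeR adjusted p 0.0138). The kinase Sik1 stood at 32.2 to 33.5 CPM in Rpl11+/- and at a mean of 22.1 in Rpl5+/- (log2 difference 0.57, edgeR adjusted p 0.0121), and Tap2, the partner of Tap1, differed by 0.61 (edgeR adjusted p 0.0121). No immediate early gene and no p53 target passed between the 2 genotypes, with medians of 0.13 and 0.20 beside 0.00 over all genes. The RNA count of 18 was 11, 8 and 441 without clones 22, 406 and 414, and 3, 4 and 4 without Rpl5+/- clones 68, 76 and 80.

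Against Rpl22+/-, loss of 1 copy of a large-subunit protein outside the 5S particle, 539 genes passed in RNA (4.21%), 313 higher in Rpl11+/- (2.44%) and 226 lower (1.76%), and 24 in footprints (0.148%), 12 in each direction (0.074%). Ribosomal proteins made up part of this: 50 of the same 76 genes were higher in Rpl11+/- and 0 lower, with a median log2 difference of 0.28. Rpsa stood at 5744 CPM in Rpl11+/- and 4299 in Rpl22+/- (log2 difference 0.42, edgeR adjusted p 0.0025), and Rplp0 differed by 0.36 (edgeR adjusted p 0.00333). By clone, the large-subunit median from WT was 0.07, 0.09 and -0.02 in Rpl22+/- clones 13, 16 and 60. In footprints 0 of the 76 passed, with a median of 0.23. Of the biogenesis factors 12 of 116 were higher than in Rpl22+/-, of the ATF4 list 4 of 34 were lower, of mitosis genes 5 of 28 lower, and of interferon genes 6 of 20 higher. Of the immediate early genes 0 of 34 were higher and 1 was lower than in Rpl22+/-, and the median difference was 0.00. Csrnp1 RNA, for one, averaged 176 CPM in both genotypes, against 95.7 in WT. The count of 539 was 12, 151 and 1326 without clones 22, 406 and 414, and 96, 132 and 151 without Rpl22+/- clones 13, 16 and 60. The footprint count of 24 was 2, 1 and 67, and 2, 231 and 0, in the same order. The footprint libraries of Rpl22+/- clones 13, 16 and 60 held 38270983, 43381758 and 15598994 counts, and the part of depth in this count was not tested.

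Single clones also differed over whole chromosomes. In clone 22 the median RNA of chromosome 13 genes was 0.27 below the WT mean on the log2 scale, and in clone 406 that of chromosome 4 genes, where Rpl11 lies, was 0.12 above it. No chromosome median of a WT clone lay outside -0.02 to 0.01, and those of clone 414 lay between -0.03 and 0.05. Along chromosome 13, 11 of 12 bins of 10 Mb were below 0 in clone 22, and along chromosome 4, 13 of 15 were above 0 in clone 406. Footprints showed the same, with medians of -0.22 over 563 chromosome 13 genes and 0.13 over 820 chromosome 4 genes. Of 469 chromosome 13 genes tested in RNA, 14 were higher (2.99%) and 50 lower (10.7%). Of 712 on chromosome 4, 60 were higher (8.43%) and 27 lower (3.79%), beside 5.73% and 6.05% of all genes. Uneven shares were not limited to chromosomes 13 and 4. On chromosome 18, 4.03% of genes were higher and 10.6% lower, and on chromosome 19, 9.22% and 5.3%. Of the genes named above, Zfp87 and Hmgcs1 lie on chromosome 13, and Rpl11, Rpl22, Jun, Pnisr, Nfx1, Sesn2, Eif3i, Plk3 and Dnaja1 on chromosome 4. The part of these shifts in their values was not tested.

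**Figure D5:**
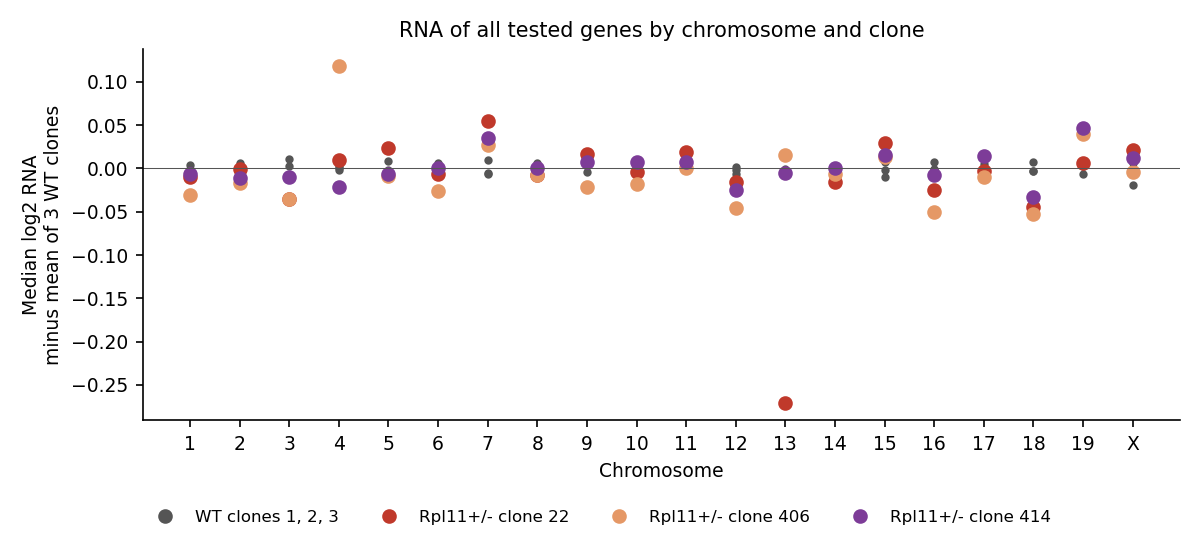
Median log2 difference of RNA from the WT mean for the genes of each chromosome, with 1 symbol per WT and Rpl11+/- clone. Chromosome 13 lies at -0.27 in clone 22 and chromosome 4 at 0.12 in clone 406, while the WT clones stay between -0.02 and 0.01.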

How the data were processed

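RNA-seq and ribosome footprint libraries of the Rpl11+/-, WT, Rpl5+/- and Rpl22+/- clones were compared. The authors deposited a single table of estimated counts per Ensembl gene, not normalized, for 55487 genes, of which 32021 matched a RefSeq gene of GRCm38.p6. Reads were aligned with STAR 2.6.1d and quantified with Salmon 1.4.0 on GRCm38, and DESeq2 1.30 is named, per the submitters' processing notes. Whether whole transcripts or coding sequences were counted, and how reads with several matches were treated, is not given in the sources used here. Footprints were fragments of 28 to 30 nt after RNase I, per the labels' protocols.

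Estimated counts were rounded and tested with edgeR 4.0.16 (R 4.3.3, limma 3.58.1, statmod 1.5.0, data.table, version 1.17.8). Genes needed 10 counts in at least 3 libraries and 15 in total, which kept 99.97% of counts. Factors from trimmed means of M values ran from 0.913 to 1.06 (RNA) and from 0.877 to 1.08 (footprints). For each assay 24 libraries, including the 4 other genotypes (Rpl22-/- and point mutations in Rpl10 or Rps15), entered 1 two-sided quasi-likelihood fit with a mean per genotype and a shared estimate of spread. The footprint change beyond RNA was the interaction of assay and genotype over 48 libraries. The adjusted p threshold was 0.05 (Benjamini-Hochberg), and the standard error is the log2 change divided by the root of F. Differences per clone used log2(CPM + 0.5). The code was tested on simulated data. With 3 clones against 3 an exact permutation test cannot go below 0.1.

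RNA and footprint libraries are paired by clone, since each lysate was divided. Deviations from the genotype mean correlated at 0.226 to 0.696 between the 2 libraries of a clone (24 clones, 8441 genes). Between different clones of a genotype they correlated at -0.601 to 0.0539. The deviations of a gene cancel out over the clones of a genotype. Positive correlations within a clone therefore push those between different clones down, and the latter are no separate check of the pairing.

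The comparison, gene lists and naming rule were chosen with earlier results of these data known. Always named were Rpl11, Rpl5, Trp53, Cdkn1a, Mdm2, Myc and Gata1. Also named were the 12 largest RNA changes per direction and all footprint changes among called genes with no overlap between groups, a standard symbol and at least 5 CPM in the higher group, the 3 lowest efficiency p per direction, up to 4 called members per list with 1 or 2 others, and the 4 lowest p per direction against Rpl5+/- and Rpl22+/-. Further called members of a list are named after their values were seen. Alternatives were DESeq2 1.42.0, its size factors in edgeR, no filter on low counts, limma voom, only the genotypes compared, protein-coding genes alone for footprints, the clone as a block, and each library left out.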

Additional observations from a re-analysis of the deposited data

Results flagged for a closer look

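The results below are genes whose levels differed between Rpl11+/- and a similar genotype in a direct test of the 2 genotypes (edgeR, adjusted over all genes). Each value is a log2 difference, Rpl11+/- minus the other genotype, and no explanation was tested for any of them.

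Against Rpl5+/-, the edited genes differed as labelled in RNA, Rpl11 by -0.88 and Rpl5 by 0.83, and Rpl5 footprints differed by 0.98 (edgeR adjusted p 0.00171). G2e3, the ubiquitin ligase whose RNA was among the largest decreases against WT, was lower than in Rpl5+/- too (-0.59, edgeR adjusted p 0.0425). Slc38a2, the amino acid importer (-0.48, edgeR adjusted p 0.0138), Cnep1r1, a subunit of a nuclear envelope phosphatase (-0.45, edgeR adjusted p 0.026), and the sorting nexin Snx13 (-0.42, edgeR adjusted p 0.026) were lower. Tap2 (0.61) and Sik1 (0.57) were higher, each with an edgeR adjusted p of 0.0121. Mpp1, a membrane scaffold protein of red cells, was higher by 1.21 (edgeR adjusted p 0.015), at 72.2, 51.2 and 29.5 CPM in clones 22, 406 and 414 against a mean of 22.0 CPM in Rpl5+/-. In footprints Ivns1abp, an actin-associated protein, was lower by -0.91 (edgeR adjusted p 0.0446). Many of these calls depended on the setting: of 11 alternatives G2e3, Mpp1 and Cnep1r1 lost theirs in 6, Snx13 in 7, Tap2 in 5, Slc38a2 in 4 and Sik1 in 3, and of 12 for footprints Ivns1abp lost its call in 7 and Rpl5 in 2.

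Against Rpl22+/-, Rpl11 RNA differed by -0.68, Rpl5 by 0.26 (edgeR adjusted p 0.0105) and Rpl22, the gene edited in the other genotype, by 0.81, at 1198 CPM against 683. The receptor kinase Grk5 (1.26), Rpsa (0.42) and Zfp322a (0.50) were higher in RNA, and the motor Kifc1 (-0.42), the mitotic kinase Mastl (-0.61), the apoptotic protease Casp8 (-0.38) and the deubiquitinase Usp11 (-0.66) were lower. Phf11b, which is induced by interferon, was higher in RNA by 2.06 and in footprints by 3.66, where its Rpl22+/- mean was 0.384 CPM. In footprints the ferritin heavy chain Fth1 was higher by 1.02 (535.6 against 264 CPM, edgeR adjusted p 0.003), Dnaja1 by 1.06 (log2 scale) and the mitochondrial nuclease Mgme1 by 0.82, while Ibtk (-0.86), Fam83d (-1.04), the lysosomal phosphatase Acp2 (-0.76) and Usp11 (-0.55) were lower. Fth1 and Dnaja1 footprints did not pass against WT (edgeR adjusted p 0.497 and 0.133). Without Rpl22+/- clones 13, 16 and 60, 7, 0 and 8 of these 8 footprint calls were lost. Clone 60 had the smallest footprint library of this genotype, at 15598994 counts. The RNA calls were lost in 0 to 2 of 11 alternatives, and of 12 for footprints the calls were lost in 2 for Fth1, 6 for Ibtk, 7 for Dnaja1, Phf11b, Mgme1 and Acp2, and 8 for Fam83d and Usp11.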

How the results depend on the processing

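Only genes picked by the naming rule were followed singly through the settings, and not the further list members named after their values were seen. None of the followed genes that passed the test changed direction under any setting. Among those that did not pass, Mdm2 RNA turned from 0.08 to -0.14 and Cdkn1a RNA from 0.24 to -0.00 (log2) without clone 22, and Mdm2, Myc and Gata1 footprints, all within 0.15 of 0, also changed sign. The median over the p53 targets in RNA turned from 0.09 to -0.04 without clone 22. Counts of genes with an adjusted p under 0.05 did depend on the setting, and the cause was not tested. For RNA against WT (1509), the other settings gave 1887 with DESeq2, 1066 without a filter, 1597 with limma voom and 855 with only the genotypes compared, and 598 to 2184 with 1 library left out. For footprints against WT (12) they gave 211 with DESeq2 (124 higher and 87 lower), 56 without a filter, 37 with limma voom (16 higher and 21 lower), 5 with only the genotypes compared and 40 with protein-coding genes alone, and 2 to 186 with 1 library left out. For the footprint change beyond RNA (0), DESeq2 gave 42, only the genotypes compared gave 1, and leaving out a library gave 0 to 3 (3 without clone 414). With the clone as a replicate block, so that the 2 libraries of a lysate are paired, the count stayed 0, with 670 genes at an unadjusted p under 0.05, and 0 also with only the genotypes compared, so the block changed no call.

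Against Rpl5+/-, RNA calls (18) were 136 with DESeq2, 5 with only the genotypes compared and 3 to 441 with 1 library left out, and footprint calls (2) were 34 with DESeq2, 1 with relative log expression factors, 0 with only the genotypes compared and 0 to 32 with 1 library left out. Against Rpl22+/-, RNA calls (539) were 878 with DESeq2, 319 without a filter, 19 with only the genotypes compared and 12 to 1326 with 1 library left out. Footprint calls (24) were 306 with DESeq2, 2 with relative log expression factors, 64 without a filter, 1 with limma voom, 0 with only the genotypes compared and 0 to 231 with 1 library left out.

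List counts under all settings were added after seeing the data. Ribosomal proteins called higher in RNA numbered 51 to 71 of 78 under all settings. The ATF4 count of 13 was 19 with DESeq2, 21 with limma voom and 3 with only the genotypes compared, and the immediate early count of 7 was 10 with DESeq2 and 12 with only the genotypes compared. Trp53 RNA and Cdkn1a footprints passed with DESeq2 and without clone 414, and Rpl11 footprints without a filter on low counts. Replicates are clones of 1 line, and 3 per genotype limit what these tests can detect.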

Other observations

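A pair of gene groups was noticed after their values were seen and is described with no test of the group. Of 17 cytosolic aminoacyl-tRNA synthetases tested in RNA, 8 passed as lower in Rpl11+/- (6.05% of all genes did) and 0 as higher, with a median log2 change of -0.40 in RNA and -0.34 in footprints. Aars, Cars, Gars, Mars1 and Nars are also members of the ATF4 list. Of 324 genes with a symbol starting in Zfp, most of them zinc-finger transcription factors, 47 passed as lower and 6 as higher (6.05% and 5.73% of all genes), with medians of -0.11 in RNA and -0.18 in footprints. Among 189 solute carriers, by contrast, 15 were higher and 13 lower, beside the same shares.

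Median genomic spans differed with the direction of the RNA call. The median span was 11195 bp for genes that rose, 31993 bp for genes that fell and 20534 bp for genes with no call. The part of gene length in these calls was not tested.

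The CArG box, the serum response element core, occurred in the RefSeq promoters of Dusp5, Egr2 and Zfp36, 3 of the 27 immediate early genes with an entry (11.1%), and in 1.81% of all promoters. None of these 3 was among the genes that passed in RNA.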
